A study of Danio rerio with 18 samples.

Results

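The genes described here are those whose transcripts were lower in unexposed zebrafish embryos at 48 than at 24 hours post fertilization (hpf). A gene was taken when its mean log2 intensity in 3 control arrays at 48 hpf was at least 1.5 below the mean of 3 control arrays at 24 hpf, a difference of 2.83-fold or more. The rule was applied to the 3051 array features with a RefSeq mRNA identifier, among 37105 features in all. It was met by 69 features (2.26% of those with a RefSeq identifier), of which 7 were left out by symbol (blf, smtnl1, hbbe3, slc14a2, prtga, her3 and her12). The remaining 62 genes are called the falling genes below, 55 with a current symbol and 7 known by identifier only. The control values chose these genes, so the control difference is given as a description with no test. The exposed embryos had no part in the choice, and the same difference was tested in them.

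The study asked how the surface of gold nanoparticles affects gene expression in the embryo. Each sample was the total RNA of 40 pooled whole embryos, hybridised to a single-colour NimbleGen array. All embryos were dechorionated at 4 hpf, and exposure ran from 6 hpf to collection at 24 or 48 hpf. Controls received vehicle, the MES embryos 50 µg/mL of gold particles coated with MES (mercaptoethanesulfonate, an anionic ligand), and the TMAT embryos 10 µg/mL of particles coated with TMAT (trimethylammoniumethanethiol, a cationic ligand), both with 1.5 nm cores. There were 3 arrays in each of the 6 groups of agent and age, 18 in all. Nothing in the labels ties a pool to a clutch, so the p-values measure only how these pools spread. In whole embryos, fewer cells of a type and less RNA per cell cannot be told apart.

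Between these ages the zebrafish embryo passes from the end of segmentation into hatching. Cell division slows in many tissues, and muscle, neurons and lens fibres mature. Replication factors load and unwind DNA ahead of the polymerases, while ribosome assembly factors process ribosomal RNA and attach it to ribosomal proteins in the nucleolus. Both machineries are known to be highly expressed in dividing embryonic cells and to decline as cells leave the cycle.

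The labels were checked before the results were read. Each of the 18 columns of a combined table that the authors also deposited equalled one of the per-array tables within 0.001, but 2 carried the label of that array and 10 the same age. The values below, and the choice of genes, rest on the per-array labels. By those labels the muscle enzyme gene ampd1 had a mean of 8.27 to 8.46 in the 3 groups at 24 hpf. At 48 hpf its mean was 14.92 or more. The other measured skeletal muscle marker, acta1b, hardly changed and did not pass (0.18 with MES and 0.13 with TMAT). Its means of 15.59 or more were among the highest of the listed genes, a level at which the response of the array was not tested. All 6 measured lens markers rose in MES and TMAT embryos. The marker genes were chosen with earlier results of these data known. These values bear on age only, and the assignment of arrays to control, MES and TMAT was not checked by any measured value. With the combined table's labels, limma called 0 of the 62 falling genes lower in MES and 0 in TMAT embryos, with 1 and 0 at an unadjusted p below 0.05. No feature of the whole array passed in either of these comparisons under those labels. The mean correlation of a control array with the others of its group was 0.89, 0.92 and 0.93 at 24 hpf and 0.95, 0.92 and 0.93 at 48 hpf (arrays 1, 2 and 3), against 0.94 to 0.99 for exposed arrays. Control array 1 at 24 hpf and array 2 at 48 hpf were the lowest of their groups, and the signal of the random control probes was 99.5, 126 and 84.4, then 106, 169 and 82.8.

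The fall seen in controls was also found in embryos exposed to either particle. In MES embryos 51 of the 62 genes fell and 0 rose (limma, adjusted p below 0.05), where 12.6% of all features and 13.4% of those with a RefSeq identifier were called lower. In the counts for MES and TMAT, fell and rose mean that a gene passed this test. In TMAT embryos 45 fell and 0 rose, where 7.55% of all and 8.69% of RefSeq features were called lower. Both tests were passed by 44 genes, or 71% of the set, against 7.04% of all and 8.06% of RefSeq features. The median difference was −1.52 in MES embryos (quartiles −1.93 and −1.15) and −1.39 in TMAT embryos (quartiles −1.81 and −1.06). Over all features these medians were −0.04 and −0.03. In controls the median that the rule set was −1.77, with a range of −3.50 to −1.51. The rule favoured genes with large control differences, so the sizes in exposed and control embryos are set side by side and were not tested against each other.

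**Figure D1:**
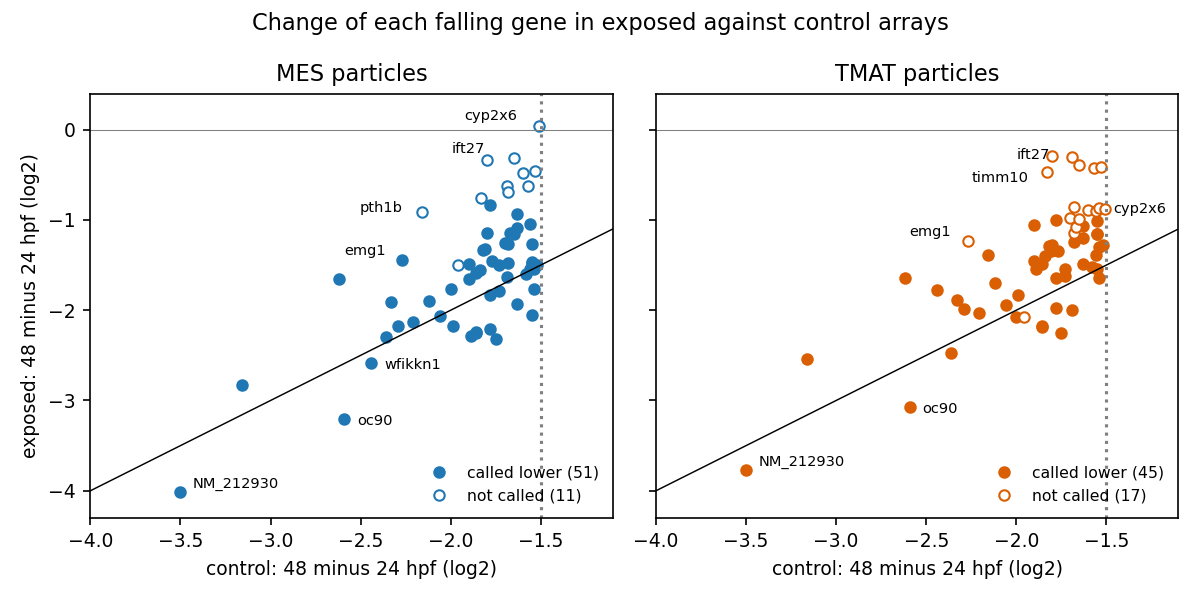
Each point is 1 of the 62 falling genes, with its 48 minus 24 hpf difference in controls (horizontal axis, log2) against that in MES or TMAT embryos (vertical axis, log2). Filled points passed the limma test, 51 in MES and 45 in TMAT embryos, the diagonal marks equal changes and the dotted line the −1.5 threshold of the rule. Most points lie above the diagonal, where the exposed change was the smaller one, and 1 MES point lies above 0. Choosing genes by large control falls favours such points in advance.

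The separation of ages could be seen in single arrays. All 3 values at 48 hpf lay below all 3 at 24 hpf for 56 genes in MES embryos and for 56 in TMAT embryos, against 29.1% and 20.1% of all features. For 53 genes this held with both particles, against 17.1% of features. A fall of 1.5 or more was measured for 33 genes with MES and 26 with TMAT. A fall of that size was found in 2.62% of RefSeq features with MES and 1.61% with TMAT. The fall was larger than in controls for 15 genes with MES and 11 with TMAT. The rule chose genes for large control falls, so smaller exposed falls were favoured in advance and these counts are no measure of the particles. Of the 80 RefSeq features that were lower by 1.5 or more in MES embryos, 41.2% were falling genes, and of the 49 in TMAT embryos 53.1%. Conversely, these were 53.2% and 41.9% of the set.

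The median log2 intensity of the 62 genes was 12.32, 11.78 and 11.64 in the control arrays at 24 hpf. It was 11.39, 11.60 and 11.70 with MES and 11.28, 11.97 and 11.51 with TMAT. At 48 hpf all 9 arrays lay between 9.86 and 10.08, so the arrays of one age differed more at 24 than at 48 hpf. Among 146 RefSeq features that rose by 2 or more in controls, the medians at 24 hpf were 9.59, 10.06 and 9.91 in controls, 10.32, 10.07 and 9.92 with MES, and 10.02, 9.61 and 10.24 with TMAT. In each group at 24 hpf the array with the highest median of falling genes (control 1, MES 3 and TMAT 2) also had the lowest median of rising features. The control arrays chose both sets, so the pattern in controls was favoured by the choice. The part of this in the results was not tested.

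**Figure D2:**
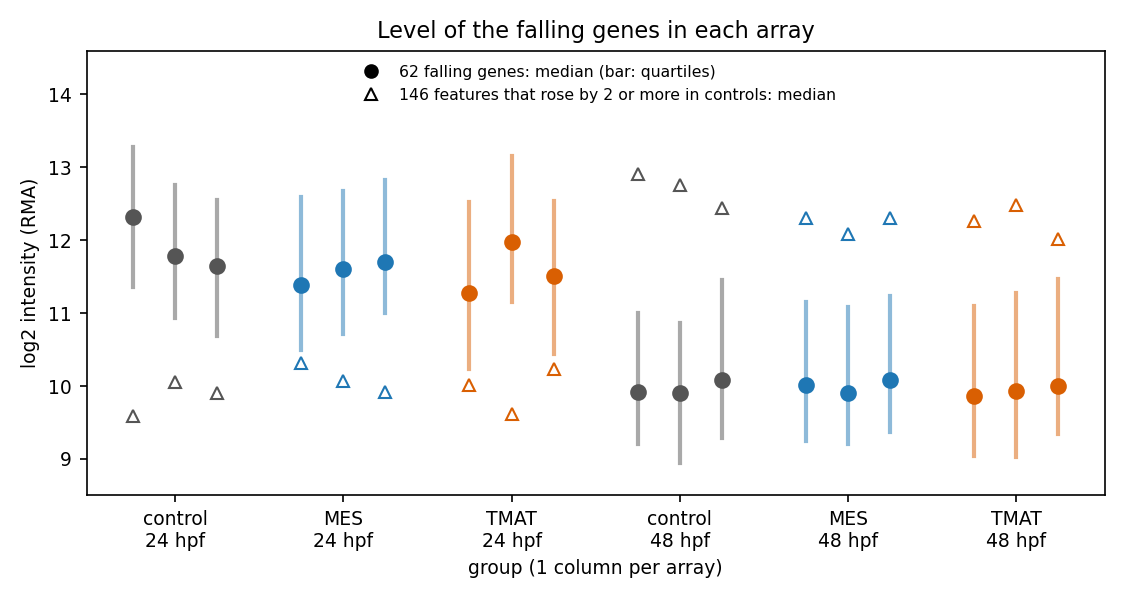
Circles give the median log2 intensity of the 62 falling genes in each array with a bar from the lower to the upper quartile, and triangles the median of 146 RefSeq features that rose by 2 or more in controls, 1 column per array. The falling genes had medians of 11.28 to 12.32 in the 9 arrays at 24 hpf and 9.86 to 10.08 in the 9 at 48 hpf, and the rising features went the other way. The control arrays chose both sets, so their part in this is a description only.

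Genes of DNA replication, repair and chromatin were the most numerous of the functions that could be named. All 11 fell with both particles, with medians of −1.54 in MES and −1.39 in TMAT embryos and −1.73 in controls. The functions were assigned by hand after the members were known, so these counts describe the set. Over all features 12.6% were called lower with MES, 7.55% with TMAT and 7.04% with both, and these shares also stand beside the counts by function below. The clamp loader subunit gene rfc2 (NM_001013326) had log2 intensities at 24 hpf of 14.37, 13.58 and 13.58 in controls, 13.62, 13.53 and 14.03 with MES, and 13.18, 14.08 and 13.67 with TMAT. At 48 hpf they were 11.57, 11.84 and 11.94, then 11.80, 11.33 and 11.88, then 11.45, 11.76 and 11.89. No array at 48 hpf reached the lowest array at 24 hpf with MES or with TMAT. The same was so in controls, whose values chose the gene. The difference in rfc2 was −2.06 ± 0.28 on the log2 scale with MES (SE, n = 3 per age, adjusted p = 9.04e-05), or 4.16-fold lower, and −1.94 ± 0.28 with TMAT (adjusted p = 0.000157). Here and below, limma estimated the SE from the spread within all 6 groups, controls included. It is not the spread of the exposed arrays alone.

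The gene gins3 (NM_001002874) encodes a subunit of GINS, a part of the replicative helicase. Its values with MES were 11.93, 12.21 and 12.37 at 24 hpf and 9.87, 9.91 and 10.22 at 48 hpf, a difference of −2.17 ± 0.33 (SE, adjusted p = 0.000253). With TMAT they were 11.41, 12.63 and 11.83, then 10.01, 10.04 and 10.35, a difference of −1.83 (adjusted p = 0.00111). The ages did not overlap with either particle. Microcephalin, the product of mcph1 (NM_001040363), regulates chromosome condensation. The MES arrays gave 11.45, 11.97 and 11.70 for mcph1 at 24 hpf and 9.83, 9.83 and 9.77 at 48 hpf, and the TMAT arrays 11.38, 11.88 and 11.57, then 9.87, 9.91 and 9.94. The fall was among the most precisely measured, at −1.90 ± 0.20 with MES (adjusted p = 1.03e-05) and −1.70 ± 0.20 with TMAT (adjusted p = 3.1e-05).

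Further genes of this function were singled out after their values were seen. Thymidylate kinase (dtymk) makes a precursor of DNA, and its gene fell with both particles, with differences of −1.48 with MES and −1.25 with TMAT. Genes of double-strand break and crosslink repair were rad52 and zswim7 (homologous recombination), xrcc4 (end joining) and fance (the Fanconi core complex). Their differences were −1.09, −1.54, −1.15 and −1.53 with MES, and −1.20, −1.39, −1.28 and −1.30 with TMAT. The chromatin genes were chrac1, a histone-fold subunit of the chromatin accessibility complex, and the histone gene h3c13a. In h3c13a the control arrays spread from 8.64 to 10.37 at 24 hpf and from 6.95 to 8.51 at 48 hpf, while the MES arrays held 9.05 to 9.51 and 7.38 to 7.74. Histone genes occur in near-identical copies, so its signal could come from more than the named copy. The h3c13a means at 48 hpf in controls (7.70) and with TMAT (7.30) were within 1 of the random probe signal on the log2 scale. When each exposed array was left out in turn, 12 fits in all, 7 of the 11 genes passed in every fit with both particles, and xrcc4 in 8 fits for MES and 9 for TMAT. For a single particle, the fits that left out an array of the other kept its difference and changed only the estimated spread. Counts out of 12 given for 1 particle, here and below, include such fits.

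Genes of the RNA polymerases, of ribosome assembly and of RNA processing formed the next group. All 7 fell with MES and 6 fell with TMAT, with medians of −1.55 and −1.40. The assembly factor gene mrto4 (NM_001017657), which acts on the large ribosomal subunit, had values of 14.01, 14.08 and 14.23 with MES at 24 hpf and 12.49, 12.41 and 12.47 at 48 hpf. With TMAT they were 14.18, 14.29 and 14.06, then 12.73, 12.54 and 12.92. The exposed arrays of one age lay close together and far from those of the other age, and mrto4 had differences of −1.65 with MES (SE 0.27, adjusted p = 0.000418) and −1.45 with TMAT (adjusted p = 0.00128). In controls the values were wider, 14.68, 13.69 and 14.20 against 12.40, 11.72 and 12.74.

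The product of polr1d is a subunit shared by the RNA polymerases that make ribosomal and transfer RNA. Its values with MES were 11.23, 11.38 and 11.32 at 24 hpf and 9.58, 8.91 and 9.64 at 48 hpf (difference −1.93 ± 0.31, adjusted p = 0.00042). With TMAT they were 10.82, 11.55 and 11.07, then 9.12, 9.92 and 9.93 (difference −1.49, adjusted p = 0.00348). The ages of polr1d did not overlap with either particle. A subunit gene common to all nuclear RNA polymerases, polr2h, fell with both (−1.49 and −1.06), and its TMAT call held in 10 of the 12 fits that left out an exposed array. The exosome subunit gene exosc4, which rests on 3 probes, also fell with both (−2.25 and −2.19). So did rpp30, of the ribonuclease P that trims transfer RNA (−1.55 and −1.40). The calls of exosc4 and rpp30 held in all 12 fits with both particles.

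The gene emg1 (NM_001040337) encodes a methyltransferase of ribosomal RNA needed for the small subunit. It had the largest control difference of this function, −2.27, and a smaller one with the particles. Its control values at 48 hpf were 10.62, 9.03 and 11.29, with array 2 the lowest of the 18 arrays. With MES the values were 12.19, 12.38 and 12.44 at 24 hpf and 11.16, 10.65 and 10.89 at 48 hpf. With TMAT they were 11.88, 12.76 and 12.15, then 10.72, 10.99 and 11.38. The 2 ages did not overlap with either particle. The MES difference of −1.44 ± 0.43 passed (adjusted p = 0.0241) but was lost on leaving out any of 5 of the 6 MES arrays (highest adjusted p = 0.0953). The TMAT difference of −1.23 did not pass (adjusted p = 0.0679), but passed when limma was fitted to the exposed arrays alone (adjusted p = 0.0034). The control arrays at 48 hpf, with an SD of 1.16, entered the SE of both differences.

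**Figure D3:**
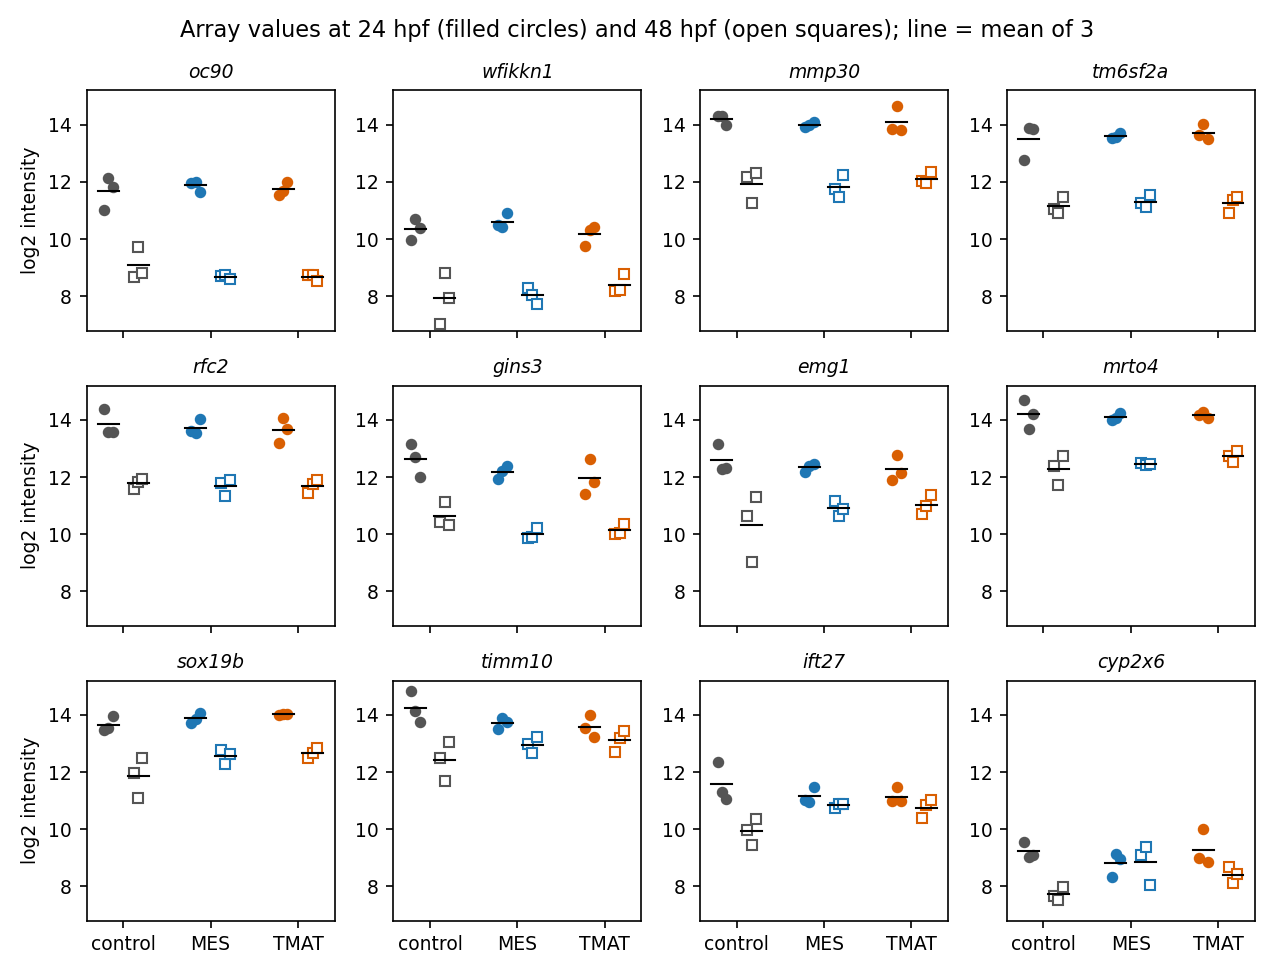
Log2 intensity of 12 falling genes in every array (vertical axes, RMA), with filled circles for 24 hpf, open squares for 48 hpf and a line at the mean of 3 arrays, for controls, MES and TMAT embryos. The ages are separate in all 3 agents for oc90, mmp30, rfc2 and mrto4, whereas timm10, ift27 and cyp2x6 were lower at 48 hpf in the control arrays and closer together or overlapping in exposed ones. Control values chose these genes, so the separation in controls is a description only.

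Of the 3 genes of protein import into mitochondria, 2 passed as lower with MES and 0 with TMAT, though the TMAT differences were below 0. The products of timm10 and timm10b chaperone carrier proteins across the intermembrane space, and that of tomm20a is a receptor on the outer membrane. In timm10 (NM_001002678) the control values were 14.84, 14.12 and 13.74 at 24 hpf and 12.48, 11.70 and 13.04 at 48 hpf. The MES values were 13.50, 13.89 and 13.76, then 12.97, 12.67 and 13.23, and the TMAT values 13.53, 13.99 and 13.24, then 12.72, 13.20 and 13.43. The ages were separate with MES and overlapped with TMAT. The timm10 differences were −0.76 ± 0.35 (adjusted p = 0.113) and −0.47 ± 0.35 (adjusted p = 0.44), against −1.83 in controls. The other 2 differed by more between the ages. In timm10b the differences were −1.27 (adjusted p = 0.0253) and −1.15 (adjusted p = 0.0564), and in tomm20a −1.14 (adjusted p = 0.042) and −1.08 (adjusted p = 0.0775). In both genes the ages were separate with MES and with TMAT. On leaving out 1 exposed array, timm10b kept its MES call in 8 of 12 fits and tomm20a in 4.

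The 2 transcriptional regulators fell with both particles. The SoxB1 factor gene sox19b (NM_131702), which is supplied to the egg by the mother and later marks neural progenitors, had TMAT values of 14.01, 14.03 and 14.02 at 24 hpf and 12.50, 12.67 and 12.85 at 48 hpf. The MES values were 13.71, 13.86 and 14.08, then 12.79, 12.30 and 12.63. Its differences were −1.34 ± 0.28 with TMAT (adjusted p = 0.00336) and −1.32 with MES (adjusted p = 0.0034), beside −1.81 in controls. The Ripply corepressor gene ripply3 (NM_001039110) is known from the pharyngeal region. With TMAT it gave 11.49, 12.36 and 11.76, then 10.22, 9.82 and 9.37, and with MES 11.62, 11.79 and 12.29, then 10.34, 10.13 and 9.94. Its differences were −2.07 ± 0.33 with TMAT (adjusted p = 0.000376) and −1.76 with MES (adjusted p = 0.00126), and both genes passed in all 12 fits that left out an exposed array.

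Genes of secreted proteins included oc90, which of the genes with a symbol had the largest difference in both MES and TMAT embryos. All 5 such genes fell with TMAT and 4 with MES, with medians of −1.78 and −2.17. The gene oc90 (NM_001080192) encodes an otoconin, a matrix protein of the otoliths in the ear. Its control values were 11.02, 12.15 and 11.84 at 24 hpf and 8.69, 9.74 and 8.81 at 48 hpf. The MES values were 11.98, 12.01 and 11.66, then 8.70, 8.74 and 8.62, and the TMAT values 11.54, 11.70 and 11.99, then 8.74, 8.73 and 8.55. The exposed arrays at 48 hpf were nearly equal, and control array 2 stood above the other 8 at that age. The change was −3.20 ± 0.30 with MES (9.17-fold lower, adjusted p = 2.15e-06) and −3.07 ± 0.30 with TMAT (8.4-fold lower, adjusted p = 3.04e-06).

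In mammals the product of wfikkn1 binds the growth factors myostatin and GDF11. The MES values were 10.50, 10.43 and 10.91 at 24 hpf and 8.29, 8.06 and 7.74 at 48 hpf, and the TMAT values 9.77, 10.33 and 10.41, then 8.18, 8.21 and 8.79. Each control array at 48 hpf was below those at 24 hpf but they spread widely, at 7.03, 8.80 and 7.95. The differences in wfikkn1 were −2.58 ± 0.36 with MES (adjusted p = 0.00013) and −1.78 ± 0.36 with TMAT (adjusted p = 0.00288). The metalloproteinase gene mmp30 had values with MES of 13.91, 13.98 and 14.09, then 11.75, 11.47 and 12.23, and with TMAT of 13.84, 14.67 and 13.83, then 12.05, 11.97 and 12.34. Its differences were −2.17 ± 0.29 with MES (adjusted p = 8.95e-05) and −1.99 with TMAT (adjusted p = 0.000199), and both wfikkn1 and mmp30 passed in all 12 fits that left out an exposed array.

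Parathyroid hormone, which regulates calcium, is encoded by pth1b in this set. Of the 62 genes, pth1b was the single one that passed with TMAT and not with MES. Its values with TMAT were 10.19, 11.08 and 9.95 at 24 hpf and 9.29, 8.84 and 8.94 at 48 hpf (difference −1.39 ± 0.36, adjusted p = 0.0133). With MES they were 10.31, 10.46 and 10.04, then 8.97, 9.62 and 9.48 (difference −0.91 ± 0.36, adjusted p = 0.0693). The ages did not overlap with either particle, and the difference between the 2 falls did not pass (−0.48, 95% interval −1.54 to 0.59). The TMAT call was lost without TMAT array 2 at 24 hpf (adjusted p = 0.0712) or at 48 hpf (adjusted p = 0.0544). The serine protease gene prss60.1 fell with both, with differences of −0.94 with MES, which held in 10 of the 12 fits that left out an exposed array, and −1.07 with TMAT, which held in all 12.

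Enzymes and lipid proteins numbered 6, of which 5 fell with MES and 4 with TMAT. In humans the product of tm6sf2 takes part in the secretion of lipoproteins. Its zebrafish relative tm6sf2a (NM_212944) gave 13.55, 13.59 and 13.71 with MES at 24 hpf and 11.26, 11.12 and 11.55 at 48 hpf. With TMAT the values were 13.64, 14.02 and 13.50, then 10.90, 11.37 and 11.47. The differences were −2.30 ± 0.29 with MES (4.94-fold lower, adjusted p = 4.17e-05) and −2.47 with TMAT (5.55-fold lower, adjusted p = 2.15e-05). Genes whose mammalian relatives are known from skeletal muscle were dhrs7ca, a short-chain reductase, and mettl21e, a lysine methyltransferase. Both genes fell with both particles, with differences of −1.91 and −1.5 with MES and −1.89 and −1.54 with TMAT.

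The control ages overlapped in sar1ab, stx4, zgc:112052 and the transglutaminase gene tgm1l4. In tgm1l4 a single control array worked against the choice. Its control values at 24 hpf were 9.51, 12.96 and 12.18, and at 48 hpf 9.87, 9.97 and 9.57, so that control array 1 at 24 hpf lay below all 3 at 48 hpf. With MES tgm1l4 gave 12.65, 12.25 and 12.61, then 10.61, 9.69 and 10.26, and with TMAT 11.98, 12.03 and 12.58, then 9.83, 10.35 and 9.67. The exposed ages were separate, with differences of −2.32 ± 0.58 (adjusted p = 0.0097) and −2.25 ± 0.58 (adjusted p = 0.0146), beside −1.75 in controls. The SE drew on the control arrays too, whose SD at 24 hpf was 1.81, against 0.22 with MES and 0.33 with TMAT. Regucalcin (rgn), a calcium-binding protein, had −1.26 with MES (adjusted p = 0.0404) and −0.98 with TMAT (adjusted p = 0.149). Among the 12 fits that left out an exposed array, the rgn call with MES held in 5 (highest adjusted p = 0.146), and the tgm1l4 calls in 11 with MES and 9 with TMAT.

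Genes of the secretory pathway numbered 5, of which 4 fell with MES and 2 with both particles. The O-glucosyltransferase gene poglut1, whose product adds glucose to the EGF repeats of Notch, had differences of −2.05 ± 0.32 with MES (adjusted p = 0.000289) and −1.54 with TMAT (adjusted p = 0.00305). Its relative poglut3 had −1.05 (adjusted p = 0.0378) and −0.90 (adjusted p = 0.104), and its MES call held in 6 of the 12 fits that left out an exposed array. The sialic acid synthase gene nansb fell with both (−1.47 and −1.16), but its TMAT call held in 5 of the 12 (highest adjusted p = 0.178). In stx4, a SNARE gene of vesicle fusion at the cell surface, the MES difference of −1.54 passed (adjusted p = 0.0199, held in 9 of the 12) and the TMAT difference of −0.87 did not (adjusted p = 0.237).

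The largest fall of the set belonged to a feature without a current symbol, NM_212930. Its values at 24 hpf were 13, 13.39 and 13.04 in controls, 13.22, 12.96 and 13.60 with MES, and 12.76, 13.46 and 13.10 with TMAT. At 48 hpf they were 9.36, 10.34 and 9.23, then 9.33, 9.20 and 9.22, then 9.23, 9.25 and 9.52. The arrays at 24 hpf were far above those at 48 hpf with MES and with TMAT, and also in controls, whose values chose the gene. Control array 2 was the highest at 48 hpf. The difference was −3.50 in controls, −4.01 ± 0.28 with MES (16.1-fold lower, adjusted p = 1.25e-07) and −3.77 with TMAT (13.7-fold lower, adjusted p = 2.38e-07). Of the 7 features without a symbol, 5 fell with both particles, as did 5 of the 6 with a si: or zgc: name. Among the latter, si:ch211-244b2.3 had the next largest control difference, −3.16, and fell with both particles (−2.83 with MES and −2.54 with TMAT). After it came si:ch1073-464p5.2 with −2.62 in controls, −1.66 ± 0.31 with MES (adjusted p = 0.00121) and −1.64 with TMAT (adjusted p = 0.00148).

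**Figure D4:**
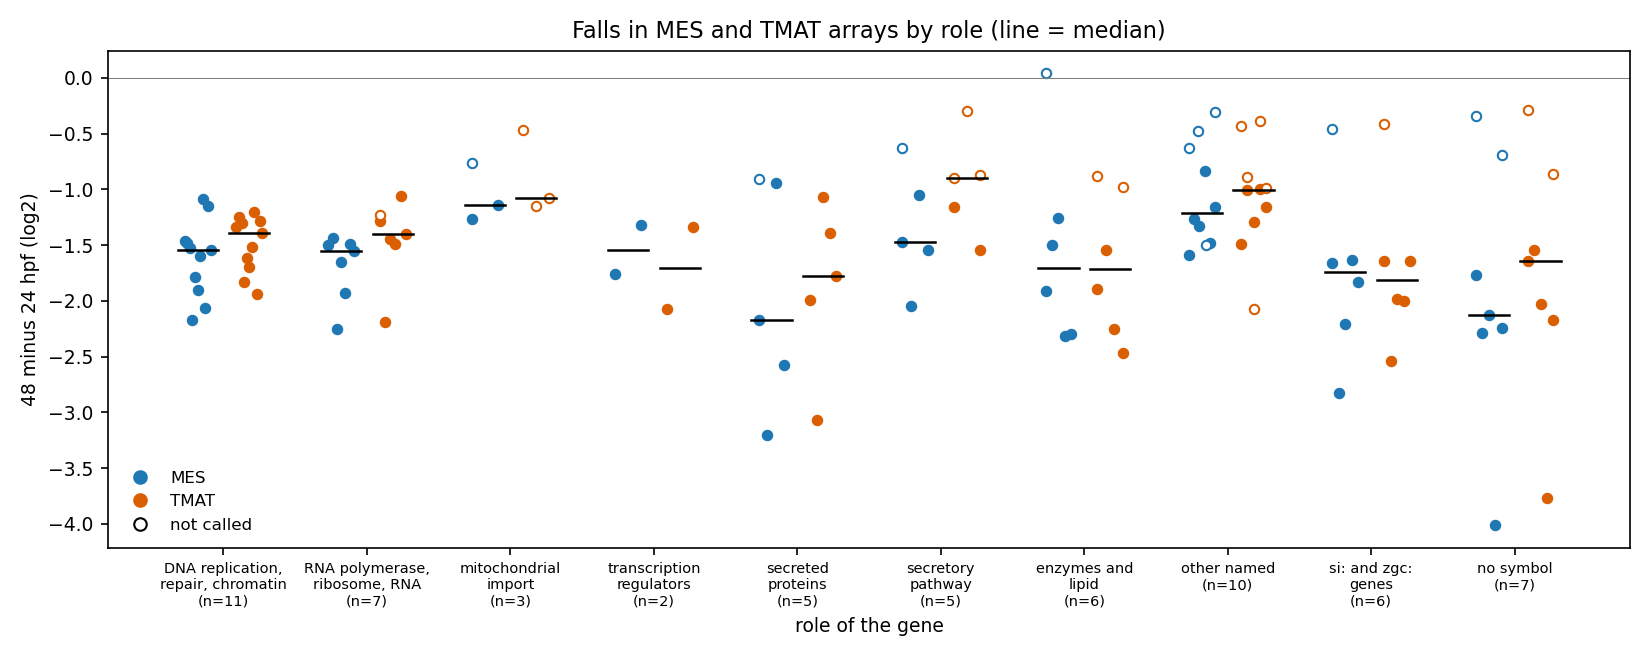
Each point is a falling gene, with its 48 minus 24 hpf difference (vertical axis, log2) in MES (blue) and TMAT (orange) embryos, placed by the role of its product, with open points for genes that did not pass and a line at the median. All 11 genes of replication, repair and chromatin passed with both particles, and the points nearest 0 lie among mitochondrial import, the secretory pathway, enzymes, other named genes and genes without an informative name.

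A smaller number of falling genes did not pass in exposed embryos. There were 11 such genes with MES and 17 with TMAT, 10 of them with both. The gene cyp2x6, a cytochrome P450, was the one whose MES difference was not below 0. Its control values were 9.57, 9.03 and 9.10 at 24 hpf and 7.67, 7.52 and 7.97 at 48 hpf. With MES they were 8.32, 9.13 and 8.97, then 9.10, 9.37 and 8.06, and with TMAT 9.01, 10.01 and 8.84, then 8.69, 8.12 and 8.43. The ages overlapped with MES (difference 0.04 ± 0.36, adjusted p = 0.952) and were separate with TMAT (−0.88 ± 0.36, adjusted p = 0.124). The control mean of cyp2x6 at 48 hpf, 7.72, was within 1 of the signal of random probes on the log2 scale.

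The intraflagellar transport GTPase gene ift27 (NM_001008588) and the GTPase gene sar1ab, whose product starts COPII coats on the endoplasmic reticulum, were 2 others. The control values of ift27 were 12.34, 11.31 and 11.07, then 9.97, 9.45 and 10.35. With MES they were 11.03, 10.97 and 11.47, then 10.74, 10.88 and 10.90, and with TMAT 10.98, 11.47 and 10.98, then 10.40, 10.85 and 11.02. Control array 1 at 24 hpf was the highest of the 18 arrays and control array 2 at 48 hpf the lowest. The exposed differences were −0.31 ± 0.31 (adjusted p = 0.496) and −0.39 ± 0.31 (adjusted p = 0.493), against −1.65 in controls. In sar1ab the control values at 48 hpf were 10.40, 8.13 and 11.46 and those of the exposed arrays at that age 11.01 to 11.71. Its differences were −0.63 ± 0.58 (adjusted p = 0.449) and −0.30 (adjusted p = 0.807).

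The remaining genes that passed with neither particle were timm10, cybc1, ctdnep1b, armc7, zgc:112052 and the unnamed NM_001040392 and NM_001079852. The gene cybc1, which encodes a chaperone of the NADPH oxidase, rests on 2 probes and had differences of −1.5 ± 0.68 (adjusted p = 0.115) and −2.07 ± 0.68 (adjusted p = 0.0508). In ctdnep1b, a phosphatase gene of the nuclear envelope, they were −0.48 and −0.89. The calcium-binding protein gene tesca passed with MES alone, at −1.16 (adjusted p = 0.0178, held in 9 of the 12 fits that left out an exposed array) against −0.99 with TMAT (adjusted p = 0.0522). The SEs of the genes that passed with neither were 0.28 to 0.68, so these values do not show that there was no fall.

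Which genes were chosen depended on the control arrays, among them the one with the lowest correlation at each age. Without control array 1 at 24 hpf the rule chose 45 genes, 36 of them in the set, and without control array 2 at 48 hpf it chose 52, 42 of them in the set. Leaving out one of the other 4 control arrays kept 51 to 60 of the 62 and chose 63 to 102. Without both arrays, a choice made after seeing the data, the rule chose 43 genes, 27 of them in the set. All 10 genes that passed with neither particle were among the 35 then lost. The part of the 2 control arrays in this was not tested. Of the 43 genes, limma called 42 lower with MES, 42 with TMAT and 41 with both. Over all features the shares called lower were 12.6%, 7.55% and 7.04%. The MES median of the 43 genes was −1.79. Of the 27 shared genes 26 fell with both particles.

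At the threshold, the last genes inside had control differences of −1.533 (zgc:112052), −1.515 (cmss1) and −1.513 (cyp2x6). Those just outside had −1.497 (NM_001014311), −1.493 (tmem120aa) and −1.493 (pibf1). With MES their differences were −0.46, −1.5 and 0.04 inside and 0.02, −0.63 and −1.49 outside.

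No falling gene passed a test for a difference between the particles. The 2 exposures differed in dose as well as in ligand, so these cannot be told apart. The fall was smaller with TMAT than with MES for 47 of the 62 genes, or 75.8%, with a median difference of 0.13. Over all features the TMAT minus MES difference was above 0 for 55.6%, with a median of 0.04. Those include features that rose or did not change, so the shares are not of the same kind. The genes share the same arrays, and without TMAT array 1 at 24 hpf the median over the 62 was −0.03. The single differences ran from −0.92 in cyp2x6 (95% interval −2.0 to 0.17) to 0.80 in wfikkn1 (95% interval −0.28 to 1.89). None of the 62 passed (limma, 0 at an adjusted p of 0.05 and 0 at an unadjusted p below 0.05, against 0% and 0.66% of all features). The share of 0.66% is well below what a threshold of 0.05 lets through when no feature differs, so this test was a cautious one. Its SE, which also sets the intervals, drew on the control arrays too. A fit of the exposed arrays alone also called 0 of the 62. The 95% intervals had a median half-width of 0.96, and 13 of the 62 lay wholly between −1 and 1, so a 2-fold difference in the fall could not be set aside for the rest.

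The levels of TMAT and MES embryos were also compared within each age. At 24 hpf the TMAT minus MES differences ran from −0.44 to 0.51 with a median of −0.08, and 0 genes passed, with 0 at an unadjusted p below 0.05 (0.0997% of all features). At 48 hpf they ran from −0.56 to 0.66 with a median of 0.08, and again 0 passed and 0 had an unadjusted p below 0.05 (1.59% of all features). Both shares are below what that threshold lets through when no feature differs, so these tests were cautious too. The 95% interval lay between −1 and 1 for 49 genes at 24 hpf and 40 at 48 hpf. Across the 62 genes the falls with MES and with TMAT had a Pearson correlation of 0.91, as a description of genes measured on the same design, and 0.95 over all RefSeq features.

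Other measured genes of the same pathways gave the wider picture. Of the 9 other genes on the list of the cell cycle and DNA replication, 5 fell with both particles and 0 rose, with medians of −1.13 with MES, −1.19 with TMAT and −0.99 in controls. Of all RefSeq features, 8.06% were called lower with both. The replication factor gene mcm10 had differences of −1.91 ± 0.36 with MES (adjusted p = 0.00136) and −2.0 with TMAT (adjusted p = 0.00103), though its control difference was −0.99. The chromatin assembly gene chaf1a had −1.41 and −1.45, the origin recognition gene orc2 −1.32 and −1.19, the ubiquitin-conjugating gene ube2c of mitosis −1.13 and −1.09, and rfc5, a clamp loader partner of rfc2, −1.04 and −1.18, and all 4 passed with both. The 4 that passed with neither were cdk4, ccna2, mcm5 and foxm1. The MES mean of ccna2 at 24 hpf was 15.81, among the highest of the listed genes. In mcm5, a helicase subunit gene, the differences were −1.11 ± 0.61 (adjusted p = 0.192) and −1.31 ± 0.61 (adjusted p = 0.184).

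Of the 12 other genes of ribosome biogenesis, 9 fell with MES, 8 with TMAT and 0 rose, with medians of −1.01, −0.97 and −1.0 in controls. Of all RefSeq features, 13.4% were called lower with MES and 8.69% with TMAT. The nucleolar genes lyar and ppan fell with both particles, with differences of −1.55 and −1.34 with MES and −1.36 and −1.18 with TMAT. In nop53 and nop56 the MES differences were −0.10 (adjusted p = 0.678) and −0.19 (adjusted p = 0.45). Their MES means at 24 hpf, 15.46 and 15.61, were among the highest of the listed genes. Whether signals of that height can still show a fall was not tested. Of the 7 genes of RNA processing and chromatin, 3 fell with MES and 1 with TMAT, with medians of −0.21 and −0.30. Some of these were equally high, with a MES mean at 24 hpf of 15.80 in cbx3a and 15.42 in cbx5.

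The lists of the ear and lateral line and of muscle, each with 1 falling gene, did not show such a count. Nor did the other lists that held a falling gene. Of 10 other signalling genes, 2 fell with MES, 0 with TMAT and 0 rose. Of 13 other notochord and matrix genes, 1 fell with MES, 0 fell with TMAT and 2 rose with each. On the lists of neural progenitors (3 others), yolk and liver (4) and the maternal and germ line (3), 0 fell with either particle. With each particle 1 gene rose on the neural list, 1 on the yolk list and 0 on the maternal list. Of the 4 other genes of the ear and lateral line, 0 fell and 2 rose with each particle. These were tectb, a tectorial membrane gene (1.68 ± 0.27 with MES, adjusted p = 0.000418), and starmaker, stm, another otolith matrix gene (0.80 ± 0.23, adjusted p = 0.0193), while oc90 was lower. Of the 28 other muscle genes, 4 fell and 6 rose with MES, and 3 and 7 with TMAT. The muscle falls were near the RefSeq shares called lower, 13.4% with MES and 8.69% with TMAT. The share of all features that rose was not counted, so the rises on these lists have no measure beside them. Not counted either was the muscle gene smtnl1, left out by symbol, which was lower by −3.48 with MES and −3.38 with TMAT. The 55 falling genes with a symbol lay on 22 chromosomes of the RefSeq annotation, and 0 pairs were within 5 genes of each other.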

How the data were processed

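The values were RMA intensities on a linear scale that the authors deposited, 1 table per array. RMA, which corrects background, equalises quantiles between arrays and summarises the probes of a feature, is named per the submitters' processing notes. The sources used here do not give its version or say whether all arrays were normalized together. The log2 of each deposited intensity was taken with no pseudocount. A falling gene summarised a median of 9 probes (2 to 12), and symbols came from RefSeq for 2659 of 3051 identifiers.

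limma 3.58.1 in R 4.3.3 was fitted to 37105 features in a model of 6 group means over 18 arrays (12 residual and 3.85 prior degrees of freedom), after the feature of random control probes was set aside. Contrasts were two-sided, with Benjamini-Hochberg adjustment over all features per contrast and a threshold of 0.05. The script was tested on simulated data. Precision is limited by 3 arrays per group, and the SE of a difference between ages had a median of 0.32 over the falling genes (0.20 to 0.68). Falling genes were not tested in exposed against control embryos, since control values chose them. Near the signal of random probes, within 1 on the log2 scale, were 0 genes at 24 hpf and 2, 0 and 1 at 48 hpf (controls, MES, TMAT). These were cyp2x6 and h3c13a in controls and h3c13a with TMAT.

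The members and the gene lists were chosen with earlier results of these data known. Named by rule were the 15 genes with a symbol and the largest control falls, up to 5 per list, up to 10 that did not pass, and 3 on each side of the threshold. Other genes were named for their function after their values were seen, and 1 member is counted but not reported here by name. Alternatives were other normalization, centring, a filter on dim features, other spread models, array weights, a replicate block, the combined table, other thresholds of the rule, and each array left out in turn.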

Additional observations from a re-analysis of the deposited data

How the results depend on the processing

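The 3 arrays per group and the spread of the control arrays set the limits. Over the 12 fits that each left out an exposed array, 41 to 52 genes were called with MES, 35 to 47 with TMAT and 35 to 46 with both, and 32 were called with both in every fit. The medians ran from −1.63 to −1.42 with MES and from −1.53 to −1.12 with TMAT, and the median TMAT minus MES difference from −0.03 to 0.37, below 0 without TMAT array 1 at 24 hpf. A fit of the exposed arrays alone called 54 and 53, 51 of them with both, and added emg1 with TMAT (adjusted p = 0.0034), pth1b with MES (adjusted p = 0.0242) and timm10 with MES (adjusted p = 0.0278). No paired call is made, since arrays sharing a replicate number deviated in no constant direction. The correlations over the 9 pairs of ages ran from −0.49 (TMAT replicate 3) to 0.61 (TMAT replicate 1). With the replicate block 47, 44 and 42 were called at medians of −1.52 and −1.39. The share of all features called in each of these other fits is not given, so their counts have no measure beside them. At a rule threshold of −1 there were 223 genes, of which 149, 113 and 111 were called with MES, TMAT and both (medians −1.04 and −0.92), and at −2 there were 14, with 13, 13 and 12 called (medians −2.09 and −1.97). With members chosen without 1 control array, the MES calls ranged from 39 to 65, the TMAT calls from 39 to 53 and those with both from 38 to 52, with medians of −1.66 to −1.15 and −1.54 to −1.0. Leaving out array 2 of the younger controls gave a MES median of −1.27, and leaving out array 3 of the older ones gave −1.15 with MES and −1.0 with TMAT. It was −1.79 without the control array of lowest correlation at each age, a choice made after seeing the data.

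With the columns of the combined table as labelled, which mixed the ages of the per-array labels, 0 genes were called with MES, TMAT or both, the medians were 0.54 with MES and −0.41 with TMAT, and the TMAT minus MES median was −0.99. The MES change was then 0.53 in oc90, 0.38 in wfikkn1, 0.78 in tm6sf2a, 0.67 in dhrs7ca, 0.99 in mmp30, 0.91 in emg1, 0.94 in pth1b, 0.40 in mcph1, 0.45 in rfc2, 0.71 in ripply3, 0.20 in gins3, 0.85 in mrto4, 1.00 in sox19b, 0.59 in timm10, 0.66 in ift27 and 1.44 in sar1ab. The TMAT change was 0.04 in ift27 and 0.05 in sar1ab. In cyp2x6 the MES change was −0.18 after quantile normalization and ran from −0.23 to 0.43 over the fits that left out an exposed array. These settings gave 756 comparisons for 18 named genes, of which 706 kept their direction and their side of the threshold, 21 lost a call, 7 gained one and 22 changed sign. They include fits that left out an array of the other particle, in which a difference cannot change.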
